A study of Mus musculus with 8 samples.

Results

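The genes of cholesterol and fatty acid synthesis were examined in notochord-derived cells (NDCs), the cells of the embryonic notochord and the nucleus pulposus (NP) cells of the intervertebral disc that descend from them. The 35 genes were a listed set of enzymes and regulators, taken by name from the 43346 gene identifiers counted, and 18 of them belong to the sterol branch, 12 to the fatty acid branch and 5 to the regulators of both. The list does not hold every enzyme of either route. RNA-Seq was performed on primary cells of Shh-cre;ROSA:YFP mice, in which cre driven by the Shh gene switches on yellow fluorescent protein (YFP) in Shh-expressing cells and all their progeny, so that both groups carried the same alleles. The first group was 4 litters at embryonic day 12.5 (E12.5) and the second 4 litters at postnatal day 0 (P0), and each sample was the pooled RNA of the animals of 1 litter. Intact notochords were dissected at E12.5 and put straight into TRIzol without a sort, whereas NP cells at P0 were shaken out of the bisected discs and collected by sorting for YFP. The comparison asks how abundance differs between notochord and newly formed NP. Stage and isolation method cannot be told apart. In pooled bulk RNA, a lower abundance from fewer cells of a type cannot be told apart from less RNA per cell.

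Cells make cholesterol and fatty acids from the same precursor, acetyl-CoA. In the sterol branch it is joined into mevalonate, isoprenoids, squalene and lanosterol, and lanosterol is trimmed and reduced to cholesterol, which membranes need and which is also attached to the Hedgehog ligand that the notochord secretes. In the fatty acid branch acetyl-CoA is carboxylated and built into palmitate, which elongases lengthen and desaturases give double bonds. Both branches are transcribed under the SREBP factors, which the escort protein SCAP brings to the Golgi for release when sterols are low and which the INSIG proteins hold back when sterols are high.

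Reads counted on genes numbered 4442775 to 7180221 per litter at E12.5, compared to 6371842 to 8904050 at P0. A count of 3, taken as the smallest visible signal, equals 0.337 to 0.675 CPM, the count of a gene scaled to a fixed number of reads in its library. This floor uses the total counts of each library, without the TMM scaling of the other CPM values. It covers counting error only. All 35 genes passed the filter on low counts. Of 10 markers of the labelled cell type, 2 were significantly higher at P0 (Krt19 and Cd24a), 2 lower (Shh and Foxa1), 5 did not pass and Noto was not tested (edgeR), and their sum was 2118 to 4790 CPM at E12.5, compared to 2097 to 7459 CPM at P0. T (brachyury) was present in all litters, at 242 to 942 CPM at E12.5, compared to 574 to 2323 CPM at P0, whereas Noto was at or near 0 in all of them and Shh fell from between 420.3 and 1348 CPM to between 0.157 and 11.8 CPM. Markers of other cells also differed between the groups. Summed over 10 leukocyte markers, abundance was 80.8 to 148 CPM at E12.5, compared to 3175, 3710 and 4139 CPM in 3 of the P0 litters and 471 CPM in the last, NPD30. The globins Hbb-y, Hba-x and Hbb-bh1, markers of red cells of the yolk sac, summed to 8120 to 32815 CPM at E12.5, compared to 2.12 to 7.07 CPM at P0. Neutrophil markers, 8 genes, rose from between 4.01 and 15.8 CPM to between 764 and 6678 CPM, with 7 significantly higher. Osteoblast markers, 6 genes, summed to 289 to 1432 CPM at E12.5 and 3905, 8048, 7720 and 13321 CPM at P0, with 4 significantly higher and the highest sum in NPD30. Sclerotome markers, 7 genes that were all significantly lower, summed to 159 to 225 CPM and 14.7 to 29.4 CPM, and skeletal muscle markers, 6 genes of which 5 were significantly lower, to 210 to 1084 CPM and 20.5 to 116 CPM (edgeR). The part of these other cells in the values of the synthesis genes was not tested. In these and all later sentences, values are given for the E12.5 litters NDP10.2, NPD3, NPD4 and NPD9.2 and then for the litters NPD26, NPD27, NPD28 and NPD30 of P0, in that order. Each litter was a separate sample, and p-values measure the spread between litters.

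Most of the synthesis genes did not differ significantly in mRNA abundance between the stages. In simulated data with 200 of 15467 genes changed, 6.45% of 2-fold and 75.7% of 4-fold changes were recovered. These shares are not the recovery in the real data, where 2468 genes passed as higher and 1853 as lower. With more genes passing, the same adjusted threshold admits larger unadjusted p-values. Acaca and Elovl6 passed with log2 fold changes of -0.93 and -0.68, under 2-fold. The recovery in the real data was not measured, so a gene that did not pass is not shown to be unchanged. At an adjusted p under 0.05 (edgeR quasi-likelihood F-test, Benjamini-Hochberg over all 15467 genes tested), 3 of the 35 were significantly higher at P0, Ebp, Elovl1 and Scd1, compared with 16.0% of all genes tested. Significantly lower abundance at P0 was found for 3 of the 35, Fasn, Acaca and Elovl6, compared with 12% of all genes. All P0 litters lay above all E12.5 litters for 3 of the 35 genes, where the share of all genes was 15.5%, and below them for 4, where it was 14.4%. The share of the 35 genes was 8.57% in each direction of the test, under the share of all genes. The median log2 fold change, P0 over E12.5, was 0.05 over the 35 genes and 0.04 over all genes tested. The branches had similar medians, 0.01 for sterols and -0.06 for fatty acids, but 1 of 18 sterol genes and 5 of 12 fatty acid genes passed the test, a difference in counts that was not tested. Summed over the 35 genes, abundance was 2797 ± 265 CPM at E12.5, compared to 2799 ± 643 CPM at P0 (mean ± SD, n = 4 litters each).

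**Figure D1:**
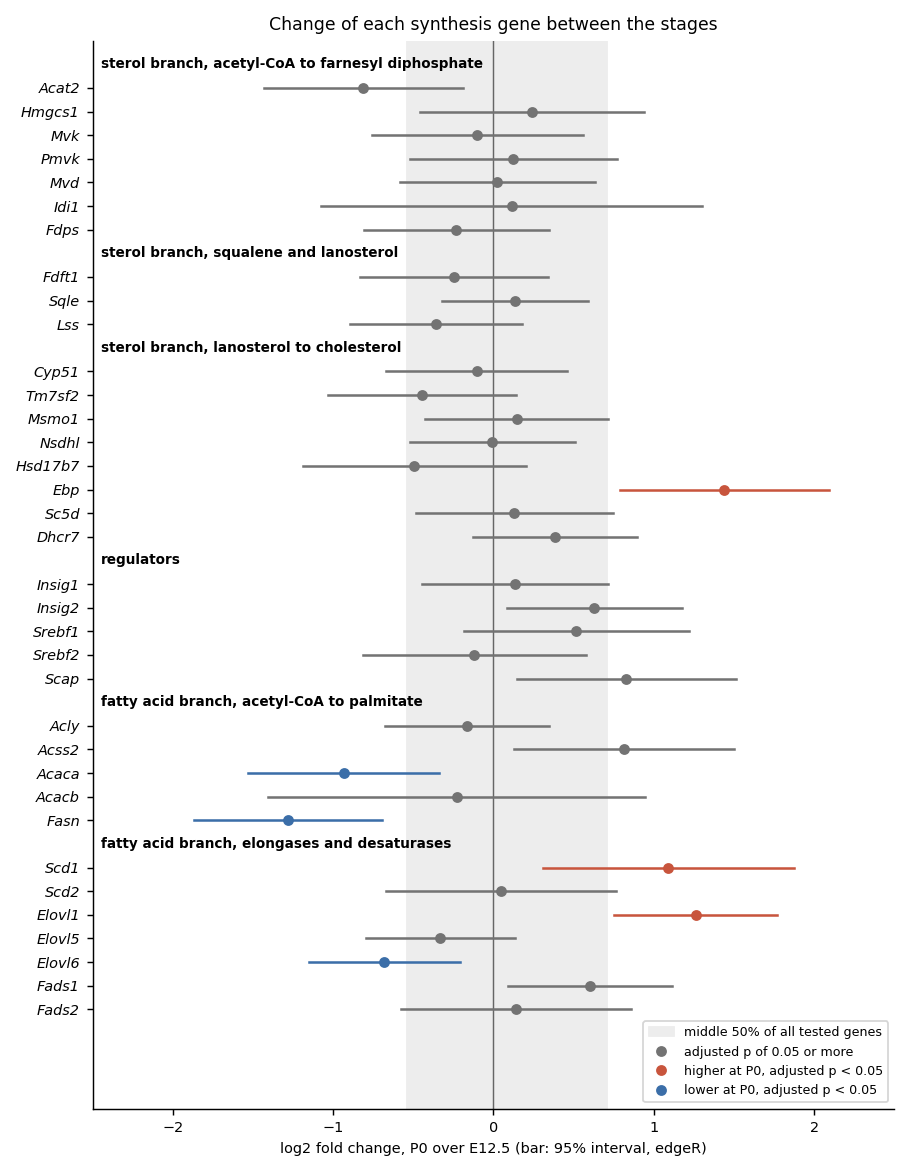
Log2 fold change of each synthesis gene, P0 over E12.5 (x axis), with its 95% interval from edgeR as a bar, 4 litters per stage. Of the 35 genes, 3 in red were higher and 3 in blue were lower at P0, and the other 29 in grey did not pass an adjusted p of 0.05. The grey band holds the middle 50% of all genes tested, from -0.54 to 0.71.

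Promoters of 29 of the 35 genes were matched by symbol in the RefSeq table of build GRCm38.p6, which gave 38 windows of 250 bases before to 50 bases after a start. Fdps, Fdft1, Sqle, Scd1, Scd2 and Fads1 had no window. The Acaca window starts at chr11:84195188, inside the gene, which starts at chr11:84129672 in Gencode M21. The sterol regulatory element bound by SREBP was searched as TCACNCCAC and the motif of its partner NF-Y as CCAAT, each on both strands. TCACNCCAC was found in 1 of the 38 windows, that of Hmgcs1, and in 1.24% of all 32851 promoters. Only this strict form was searched, so a window without a match is not shown to lack a sterol regulatory element. CCAAT was found in 25 of the 38 windows, which is 65.8% of them, and in 37.4% of all promoters and 37.0% of the promoters of tested genes. GGGCGG, the core bound by Sp1, was found in 73.7% of the 38 windows and in 35.7% of all promoters, but in 60.6% of those of tested genes. CACGTG, an E-box, was found in 18.4% of the windows, in 7.15% of all promoters and in 9.41% of those of tested genes. TCACNCCAC, CCAAT and GGGCGG cannot hold one another, but their matches may overlap at the ends. A match is a description of letters and not of binding. The 250 bases before the start are shown for Hmgcs1, the only gene with a TCACNCCAC match, and for the genes with the lowest and highest log2 fold change, Fasn and Ebp. Capitals mark matches to TCACNCCAC and to CCAAT on either strand, the latter read as ATTGG on the reverse strand.
Hmgcs1: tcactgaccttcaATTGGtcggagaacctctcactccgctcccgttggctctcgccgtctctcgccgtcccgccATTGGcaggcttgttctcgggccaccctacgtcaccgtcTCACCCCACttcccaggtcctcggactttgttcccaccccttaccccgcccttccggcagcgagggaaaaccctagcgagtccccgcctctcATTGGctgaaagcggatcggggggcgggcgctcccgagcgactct
Fasn: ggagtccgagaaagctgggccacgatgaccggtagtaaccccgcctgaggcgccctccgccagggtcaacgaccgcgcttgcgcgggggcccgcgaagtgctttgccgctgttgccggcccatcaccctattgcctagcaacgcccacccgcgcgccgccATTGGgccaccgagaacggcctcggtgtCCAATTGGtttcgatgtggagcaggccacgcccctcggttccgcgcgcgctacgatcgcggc
Ebp: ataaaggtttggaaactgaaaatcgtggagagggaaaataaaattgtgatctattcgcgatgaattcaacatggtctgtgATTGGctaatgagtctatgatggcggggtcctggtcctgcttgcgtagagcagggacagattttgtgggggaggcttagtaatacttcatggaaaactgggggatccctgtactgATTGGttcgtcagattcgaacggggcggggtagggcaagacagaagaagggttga
The Hmgcs1 window is chr13:119690101-119690350 on the plus strand, and its TCACCCCAC begins 137 bases before the start and has matches to CCAAT on both sides, 3 in all. The Fasn window is chr11:120824548-120824797 on the minus strand and holds 3 matches to CCAAT, of which a pair overlaps in CCAATTGG. The Ebp window is chrX:8193513-8193762 on the minus strand and holds 2. Fasn and Ebp moved in opposite directions, and both windows hold CCAAT and lack TCACNCCAC.

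In the sterol branch, the genes from acetyl-CoA to farnesyl diphosphate did not differ significantly between the stages. Hmgcs1, which makes HMG-CoA at the entry to the mevalonate route, was the most abundant of them. Its abundance was 144, 227, 235 and 84.6 CPM at E12.5 and 228, 179, 175 and 233 CPM at P0, a log2 fold change of 0.24 (95% interval -0.46 to 0.94, adjusted p = 0.617, edgeR). The E12.5 litters spread on both sides of the P0 litters. Acat2, the cytosolic thiolase that joins acetyl-CoA units, was 49.5, 61.9, 80.9 and 46.5 CPM at E12.5 and 44.0, 29.7, 22.1 and 40.3 CPM at P0. All P0 litters were below all E12.5 litters, but the gap between the groups was small and the log2 fold change of -0.81 did not pass the test (SE 0.28, adjusted p = 0.0522, edgeR). It passed with DESeq2 (adjusted p = 0.0354) and limma-voom (adjusted p = 0.0458). Of the 100-base windows of Acat2 transcripts, 28.9% are shared with other genes, chiefly its near copy Acat3. Reads that could not be placed on a single gene were left uncounted, so its count may be too low. The kinases Mvk and Pmvk, the decarboxylase Mvd, the isomerase Idi1 and the farnesyl diphosphate synthase Fdps had log2 fold changes between -0.23 and 0.12 with overlapping litters. Idi1 was low, at 1.97 to 6.24 CPM over all litters, and its 95% interval ran from -1.07 to 1.30. By edgeR 0 of these 7 genes passed in either direction, and at an unadjusted p under 0.05 only Acat2 did.

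From farnesyl diphosphate onward, abundance again overlapped between the stages, with Ebp as the exception. Fdft1, the squalene synthase, was 75.5, 75.5, 82.3 and 39.3 CPM at E12.5 and 63.7, 48.9, 49.4 and 68.4 CPM at P0. Only the litter NPD9.2 lay low at E12.5. Sqle, the squalene epoxidase and a rate-limiting step, was 104, 96.0, 106 and 77.2 CPM at E12.5 and 95.1, 94.9, 109 and 122 CPM at P0, and the log2 fold change was 0.14 (95% interval -0.32 to 0.59). The lanosterol synthase Lss had a log2 fold change of -0.36 (95% interval -0.90 to 0.18). Ebp, the sterol isomerase that moves a double bond in the last steps of the route, was 9.2, 8.78, 11.8 and 7.13 CPM at E12.5 and 30.7, 31.4, 18.4 and 20.5 CPM at P0. All P0 litters were above all E12.5 litters, and the abundance was significantly higher at P0, by 2.71-fold (log2 fold change 1.44, SE 0.30, adjusted p = 0.00466, edgeR). The call held without each litter in turn, with adjusted p between 0.005 and 0.0186, and was lost when the E12.5 litters NDP10.2 and NPD9.2 were both left out (adjusted p = 0.0543). Ebp lies at chrX:8185329-8193512 in the Gencode M21 annotation of GRCm38, and none of its exon bases overlap another gene.

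The enzymes that act around Ebp did not show its increase. The demethylase Cyp51, the reductase Tm7sf2, the C4-demethylation enzymes Msmo1, Nsdhl and Hsd17b7 and the desaturase Sc5d had log2 fold changes between -0.50 and 0.14, and none of the 6 passed with edgeR, DESeq2 or limma-voom, nor with edgeR at an unadjusted p under 0.05. Dhcr7, the reductase of the final step, was 51.2, 46.1, 49.4 and 47.7 CPM at E12.5 and 63.4, 48.6, 53.7 and 87.9 CPM at P0. The highest of these was the litter NPD30, and the log2 fold change of 0.38 did not pass (SE 0.23, adjusted p = 0.250, edgeR). At P0, the litter NPD30 was the highest of its stage for 10 of the 18 sterol genes, among them Sqle, Cyp51 and Dhcr7.

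The summed sterol abundance varied more between litters of a stage than between stages. Summed over the branch, abundance was 833, 1011, 1042 and 606 CPM at E12.5 and 951, 781, 788 and 1014 CPM at P0. The means were 873 ± 200 CPM and 883 ± 117 CPM (mean ± SD, n = 4). The litter NPD9.2 was the lowest E12.5 litter for 14 of the 18 sterol genes and the litter NPD4 the highest for 10. NPD9.2 also had the highest sum of the yolk sac red cell markers, at 32815 CPM against 8120 to 16124 CPM in the other E12.5 litters. That sum was not the lowest in NPD4 (8560 CPM), which NPD3 (8120 CPM) undercut. Neural progenitor and neuron markers, 8 genes, summed to 323, 226, 2505 and 369 CPM at E12.5, with the highest sum in NPD4. At P0 they summed to 1015.5, 617, 394 and 742 CPM. Whether red cell or neural RNA had a part in the sterol values of these litters was not tested.

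**Figure D2:**
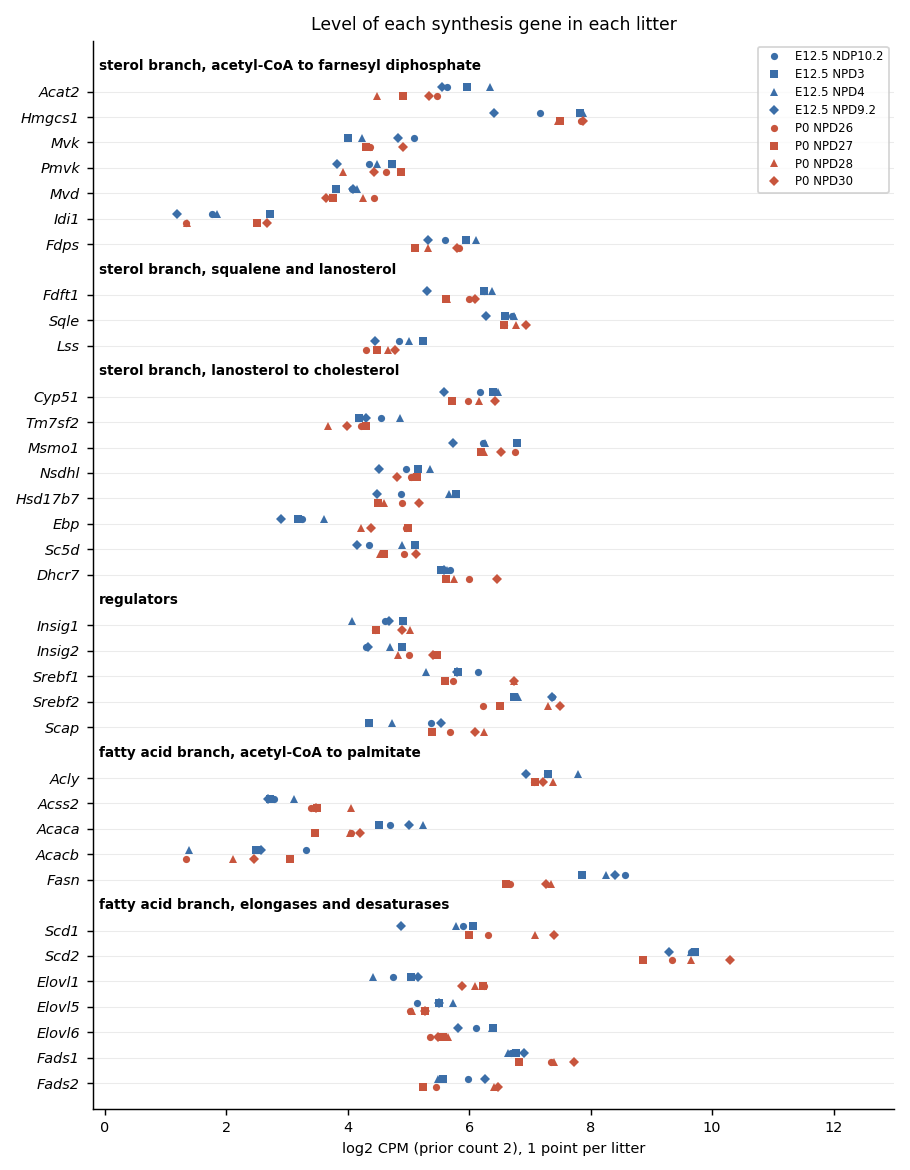
Abundance of the 35 synthesis genes in log2 CPM (x axis, prior count of 2), with 1 point per litter, E12.5 in blue and P0 in red, and a symbol for each litter. The stages overlap for 28 of the 35 genes, and the E12.5 litter NPD9.2 (blue diamond) is the lowest E12.5 point for 14 of the 18 sterol genes.

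In the fatty acid branch, Fasn and Acaca, which build palmitate, were significantly lower at P0. Fasn, the fatty acid synthase that makes palmitate, was 379, 231, 306 and 336 CPM at E12.5 and 102, 97.5, 162 and 154 CPM at P0. The highest P0 litter was below the lowest E12.5 litter. Abundance was significantly lower at P0, with E12.5 2.43-fold above P0 (log2 fold change -1.28, SE 0.27, adjusted p = 0.00482, edgeR). This was the largest decrease of the 35 genes, and Fasn (chr11:120805846-120824547) shares no exon base and no 100-base window with another gene. Its call held without each litter in turn (adjusted p between 0.0033 and 0.0174) and was lost without both NDP10.2 and NPD9.2 (adjusted p = 0.0542).

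Acaca, the acetyl-CoA carboxylase that commits carbon to the route, was 25.5, 22.6, 37.4 and 31.7 CPM at E12.5 and 16.4, 10.7, 16.1 and 18.2 CPM at P0. Its litters did not overlap either, and the log2 fold change was -0.93 (SE 0.27, adjusted p = 0.0246, edgeR). This call rested on single litters. It did not pass without NPD4, NPD9.2, NPD26 or NPD27, with adjusted p between 0.0515 and 0.0734, nor without both NDP10.2 and NPD9.2 (adjusted p = 0.0793). Of its 100-base windows, 23.7% are shared with other annotated genes. Acacb, the carboxylase of the mitochondrial surface whose malonyl-CoA restrains fatty acid oxidation, was low at 2.20 to 9.67 CPM over all litters, with a log2 fold change of -0.23 (95% interval -1.41 to 0.95).

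Neither supplier of acetyl-CoA was significantly lower. Acly, the lyase that releases acetyl-CoA from citrate, was 155, 157, 221 and 122 CPM at E12.5 and 134, 135, 167 and 148 CPM at P0. Its groups overlapped and its log2 fold change was -0.16 (95% interval -0.68 to 0.35). Acss2, the synthetase that makes acetyl-CoA from acetate, was 6.61, 6.24, 8.34 and 6.15 CPM at E12.5 and 10.22, 11.0, 16.2 and 10.8 CPM at P0. All P0 litters were above all E12.5 litters, but the log2 fold change of 0.81 did not pass (SE 0.31, adjusted p = 0.0742, edgeR) except with DESeq2 (adjusted p = 0.0475). Summed over these 5 genes, abundance was 519 ± 72.6 CPM at E12.5, compared to 307 ± 51.4 CPM at P0, and every P0 litter (262 to 365 CPM) was below every E12.5 litter (423 to 575 CPM). Fasn gave 313 CPM of that sum at E12.5 and 129 CPM at P0.

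Among the enzymes that lengthen and desaturate fatty acids, Elovl1 and Scd1 were higher and Elovl6 was lower at P0. Elovl1, an elongase of very long saturated chains that go into sphingolipids, was 26.7, 32.6, 21.03 and 35.4 CPM at E12.5 and 75.6, 74.8, 67.9 and 58.4 CPM at P0. The lowest P0 litter was well above the highest E12.5 litter. Its abundance was 2.396-fold higher at P0 (log2 fold change 1.26, SE 0.23, adjusted p = 0.00278, edgeR), the lowest adjusted p of the 35 genes, and passed without each litter in turn and in each of the 10 other planned fits. Elovl6, which takes palmitate to stearate, was 69.1, 83.7, 83.1 and 55.8 CPM at E12.5 and 40.4, 47.2, 50.1 and 44.3 CPM at P0. The groups did not overlap, but NPD9.2 lay near the P0 range. The log2 fold change was -0.68 (SE 0.21, adjusted p = 0.0355, edgeR), and the call was lost without NPD3, NPD4, NPD26, NPD27 or NPD30 (adjusted p between 0.0521 and 0.0937) and without a filter on low counts (adjusted p = 0.105). Elovl5, an elongase of polyunsaturated chains, did not pass (log2 fold change -0.33, 95% interval -0.80 to 0.13).

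The desaturases Scd1 and Scd2 place the first double bond into stearate and palmitate. Scd1 was 59.0, 66.3, 54.6 and 29.0 CPM at E12.5 and 79.4, 63.6, 135 and 167 CPM at P0. The P0 litter NPD27 fell within the E12.5 range and NPD28 and NPD30 lay far above it. The log2 fold change was 1.09 (SE 0.36, adjusted p = 0.0411, edgeR), the weakest of the 6 calls: it was lost without any single E12.5 litter or without NPD28 or NPD30 (adjusted p between 0.06 and 0.116), without both NDP10.2 and NPD9.2 (adjusted p = 0.220), with limma-voom (adjusted p = 0.0534) and with upper quartile scaling (adjusted p = 0.0703). Scd2 was the most abundant of the 35 genes, at 801, 840, 806 and 628 CPM at E12.5 and 645, 466, 808 and 1257 CPM at P0. Both the lowest and the highest values were P0 litters, and the log2 fold change was 0.05 (95% interval -0.67 to 0.76). Fads1 and Fads2 make polyunsaturated fatty acids. Fads1 was 103, 109, 99.5 and 119.5 CPM at E12.5 and 163, 112, 169 and 212 CPM at P0, and the log2 fold change was 0.60 (SE 0.23, adjusted p = 0.0761, edgeR). It passed without NPD27, the only P0 litter within the E12.5 range (log2 fold change 0.76, adjusted p = 0.04, edgeR). Fads2 did not differ significantly (0.14, 95% interval -0.58 to 0.86).

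**Figure D3:**
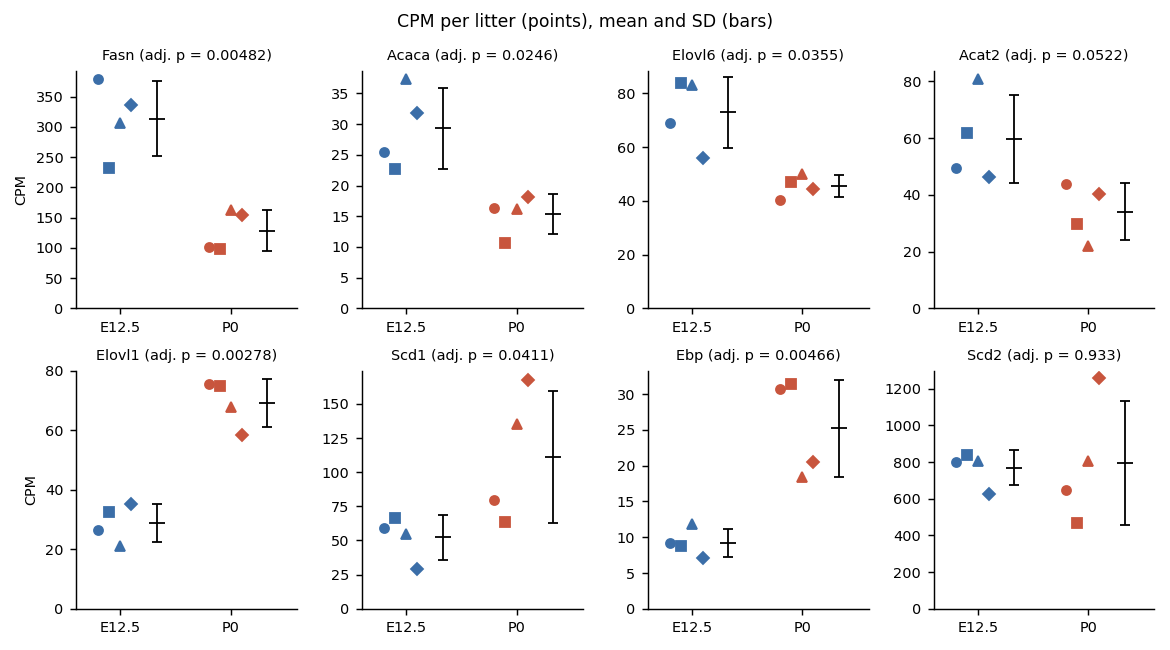
CPM per litter (y axes, linear from 0) of the 6 genes that passed the test and of Acat2 and Scd2, which did not, E12.5 in blue and P0 in red, with the mean and SD of 4 litters as a black bar. The stages do not overlap for Fasn, Acaca, Elovl6, Acat2, Elovl1 and Ebp, whereas 1 P0 litter of Scd1 lies within the E12.5 range and Scd2 at P0 runs from 466 to 1257 CPM.

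By edgeR, 0 of the 5 regulators passed in either direction, as with DESeq2 and limma-voom, and 2 of them, Insig2 and Scap, were higher at an unadjusted p under 0.05. Srebf1, whose product favours fatty acid genes, was 70.5, 55.8, 38.9 and 55.3 CPM at E12.5 and 53.2, 48.5, 107 and 107 CPM at P0. The first pair of P0 litters lay within the E12.5 range and the second pair above it. Srebf2, whose product favours sterol genes, was 164, 106, 111 and 164 CPM at E12.5 and 74.2, 90.7, 157 and 180 CPM at P0, so that NPD26 and NPD27 were again the lower pair. Scap was 41.0, 20.1, 26.2 and 46.0 CPM at E12.5 and 51.0, 41.4, 75.7 and 67.9 CPM at P0, a log2 fold change of 0.83 (SE 0.31, adjusted p = 0.0691, edgeR). It passed without both NDP10.2 and NPD9.2 (adjusted p = 0.0401) and without a filter on low counts (adjusted p = 0.0372). Insig2 had a log2 fold change of 0.63 (SE 0.25, adjusted p = 0.0823, edgeR), and Insig1, itself a classic SREBP target, of 0.13 (95% interval -0.45 to 0.72).

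Ratios within a litter compared genes with near relatives, for 5 pairs, with a two-sided exact permutation test whose smallest possible p for 4 against 4 is 0.0286. The log2 ratio of Scd1 to Scd2 was -3.93 ± 0.34 at E12.5 and -2.84 ± 0.19 at P0 (mean ± SD, n = 4), so that Scd2 exceeded Scd1 in every litter and by less at P0. The ranges did not overlap (exact permutation p = 0.0286, adjusted over the 5 pairs 0.0715). The log2 ratio of Srebf1 to Srebf2 was -1.30 ± 0.29 at E12.5 and -0.67 ± 0.19 at P0, and its ranges did not overlap either (exact permutation p = 0.0286, adjusted 0.0715). With 5 pairs, neither difference passed after adjustment, and neither could have unless more pairs had reached the smallest possible p. The ratios of Fads1 to Fads2, Insig1 to Insig2 and Acaca to Acacb overlapped between the stages (exact permutation p = 0.114, 0.2 and 0.4, adjusted 0.19, 0.25 and 0.4).

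Levels per kilobase of exon were led by Scd2 at both stages, with 141 CPM per kb at E12.5 and 145 CPM per kb at P0. Hmgcs1 came next, with 37.6 and 44.4 CPM per kb, and Acly had 31.0 and 27.7 CPM per kb. Scd2 alone took 27.5% of the summed CPM of the 35 genes at E12.5 and 28.4% at P0. Fasn went from rank 4 of 35 per kilobase at E12.5 (28.6 CPM per kb) to rank 16 at P0 (11.8 CPM per kb), and its share of the summed CPM from 11.2% to 4.60%. Fads1 went from rank 6 to rank 3 (22.4 and 34.1 CPM per kb). The lowest levels at both stages were those of Acacb, at 0.594 and 0.501 CPM per kb, followed at E12.5 by Acss2 and Idi1. The level of Acaca was 1.72 and 0.898 CPM per kb, far under that of Fasn in the same route. Lengths took all annotated exons of a gene together, 17074 bases for Acaca, so comparisons between genes also depend on the annotation.

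Among genes of neighbouring lipid routes, more were higher than lower at P0. Of 85 related genes tested, 24 were significantly higher, which is 28.2%, compared with 16.0% of all genes tested, and 1 was significantly lower, which is 1.18%, compared with 12% of all genes (edgeR, adjusted p under 0.05). By list, the share higher ran from 8.33% in the isoprenoid side branches, under the share of all genes, to 45.5% in triglyceride synthesis and lipid droplets, and no list was tested against other genes. In sterol transport, storage and efflux, 7 of 16 rose, with the largest log2 fold changes for the oxysterol receptor Nr1h3 (4.63, adjusted p = 0.0247), the efflux pump Abcg1 (4.09, adjusted p = 0.00422) and the sterol hydroxylase Cyp27a1 (3.73, adjusted p = 0.000779), all by edgeR. Nr1h3 was at or near the floor in 3 E12.5 litters and at 5.66 CPM in NPD9.2, and its call was lost without NDP10.2, NPD3, NPD4, NPD26 or NPD27 (adjusted p up to 0.0785), with limma-voom and without a filter on low counts (adjusted p up to 0.160). The call of Abcg1 was lost with limma-voom and without both NDP10.2 and NPD9.2 (adjusted p up to 0.0837). In triglyceride synthesis and lipid droplets, 5 of 11 rose, among them the lipases Pnpla2 (log2 fold change 2.39) and Mgll (1.82) and the droplet coat gene Plin2 (2.13). In fatty acid uptake and oxidation, 4 of 14 rose, among them Cpt1a (1.99), the gate of mitochondrial oxidation that malonyl-CoA inhibits, and the mitochondrial dehydrogenase Acadl (1.22). In other fatty acid synthesis and activation, 5 of 18 rose, including the elongase Elovl7 (1.94) and the acyl-CoA synthetase Acsl5 (1.65), and 1 fell, the polyunsaturated elongase Elovl2 (-3.69, adjusted p = 0.000714, edgeR). Single genes rose in further lists, with 1 of 12 in the isoprenoid side branches, the dolichol kinase Dolk (0.97, a call that held in 2 of the 8 fits without a litter), and 1 of 5 in mitochondrial fatty acid synthesis, Oxsm (1.54, lost without NPD3 or NPD26, adjusted p up to 0.0522). Plin2 (adjusted p = 0.0598) and Acadl (adjusted p = 0.0589) did not pass without both NDP10.2 and NPD9.2 (edgeR). The medians of these lists ran from 0.10 to 1.02, against 0.04 over all genes tested.

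**Figure D4:**
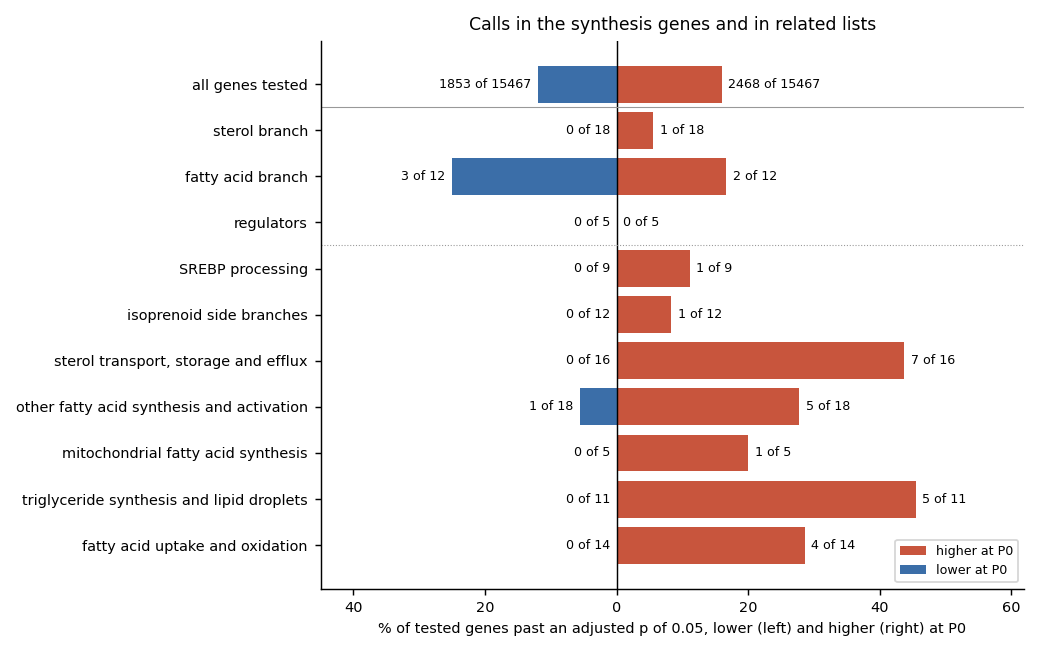
Share of tested genes in each list that passed an adjusted p of 0.05 (x axis, %), lower at P0 to the left in blue and higher to the right in red, with the counts beside the bars. The fatty acid branch has calls on both sides, 3 of 12 lower and 2 of 12 higher, whereas 7 of 16 genes of sterol transport and 5 of 11 of the triglyceride list are higher.

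The P0 litter NPD30 lay near the E12.5 level for some of these neighbours and on the side of the other P0 litters for the 6 synthesis genes that passed. Those 6 calls were made with NPD30 in the fit, so its side is no separate evidence for them. Summed over 8 macrophage markers, abundance was 6772, 7451, 3635 and 305 CPM at P0 and 73.4 to 185 CPM at E12.5. Other leukocyte RNA was not absent from NPD30. The neutrophil markers summed to 764, 802, 6678 and 973 CPM at P0, and the leukocyte markers to 471 CPM in NPD30 against 80.8 to 148 CPM at E12.5. Abcg1 followed the order of the macrophage sum, with 4.88 to 6.15 CPM at E12.5 and 123, 161, 88.6 and 5.46 CPM at P0. Plin2 was 31.8 to 56.6 CPM at E12.5 and 234, 275, 153 and 49.3 CPM at P0. Abca1 and Lipa, named here after their values were seen, showed the same low value in NPD30. Of the synthesis genes, Elovl1 and Ebp were also higher in NPD26 and NPD27, the litters with the highest macrophage sums, than in NPD28 and NPD30. Fasn was lower in NPD26 and NPD27 (102 and 97.5 CPM) than in NPD28 and NPD30 (162 and 154 CPM). Scd1 split the same way as Fasn, at 79.4 and 63.6 CPM against 135 and 167 CPM, whereas Acaca and Elovl6 did not split along these litters. The part of leukocyte RNA in these values was not tested. Cpt1a was instead 18.7 to 26.3 CPM at E12.5 and 72.5 to 106 CPM at P0, and it stayed above all E12.5 litters in NPD30.

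A fit chosen after seeing the data kept NPD30 as the only P0 litter. Its spread comes from the E12.5 litters alone, so only effect sizes are given. The log2 fold change was 1.06 for Elovl1, 1.17 for Ebp, -0.98 for Fasn, -0.65 for Acaca, -0.68 for Elovl6 and 1.71 for Scd1 (edgeR). NPD30 lay outside the E12.5 range for all 6, on the side of the main call, so these directions were fixed by its values. In that fit the log2 fold change was 1.73 for Cpt1a, 0.03 for Abcg1 and 0.33 for Plin2. Adipocyte markers, 7 genes, summed to 0.967 to 1.97 CPM at E12.5 and 71.6, 144, 27.3 and 19.7 CPM at P0. Of these genes 3 were significantly higher and 4 were not tested (edgeR). Adipoq was between 2.04 and 13.6 CPM at P0 and at 0 at E12.5. Over the P0 litters, the adipocyte sum had the same order as the macrophage sum. Scd1 was 79.4, 63.6, 135 and 167 CPM in the same P0 litters, and the part of adipocyte RNA in it was not tested.

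**Figure D5:**
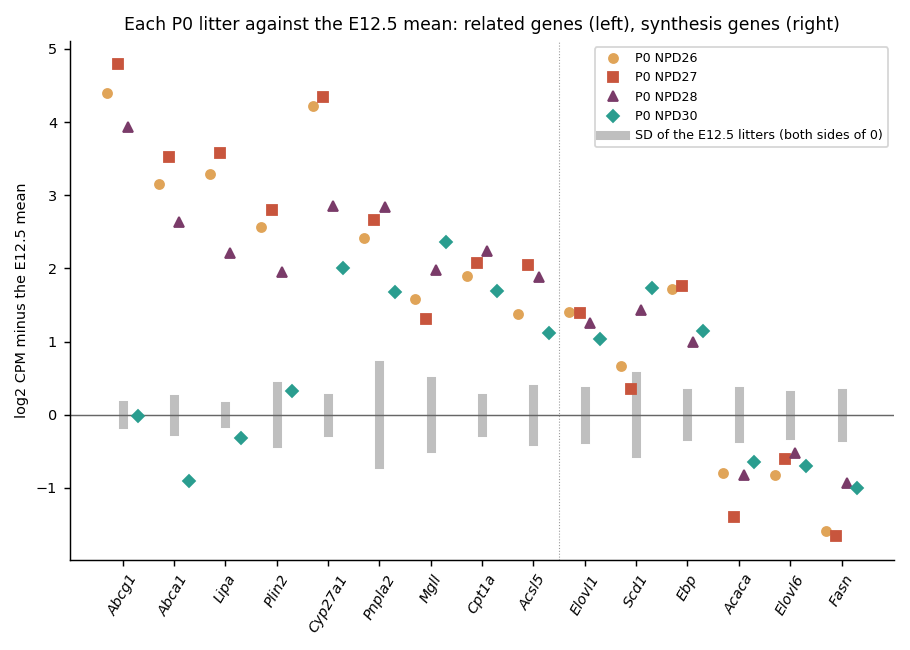
Log2 CPM of each P0 litter minus the mean of the 4 E12.5 litters (y axis) for 9 genes of related lists (left) and the 6 synthesis genes that passed (right), with grey bars for the SD of the E12.5 litters on both sides of 0. NPD30 (green diamond) is at, near or under the E12.5 level for Abcg1, Abca1, Lipa and Plin2, and lies on the same side as the other P0 litters for the 6 synthesis genes.

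Reads that fall on more than 1 gene were left uncounted. Of these and the counted reads together, they made up 41.9%, 26.3%, 24.0% and 41.6% at E12.5 and 23.8%, 18.5%, 18.6% and 22.9% at P0. Reads without a unique alignment are not part of that total. The E12.5 litters with the highest shares, NDP10.2 and NPD9.2, are those left out together in the fits without both. Of the 35 genes, 8 had over 5% of their 100-base windows shared with other genes, Acat2, Hmgcs1, Idi1, Fdps, Fdft1, Tm7sf2, Scap and Acaca, and their values are less certain for that reason. Shared windows also take in near copies at other places, and exon overlap is a separate measure. By exon bases, Acat2 and Acaca overlap no other gene, whereas 9.12% of those of Acss2 overlap others. For Ebp, Elovl1 and Fasn the share of windows was 0, but 1.94% of the exon bases of Elovl1 overlap Cdc20.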

How the data were processed

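RNA-Seq of NDCs from 4 E12.5 and 4 P0 litters was analysed. The authors aligned 100-base single-end reads with STAR 2.4.0j to GRCm38.p3, assigned them to genes of Gencode M4 with HTSeq and deposited raw counts per gene and sample, without normalization. The strand setting is not given in the sources used here, so reads of a gene and an antisense partner cannot be told apart. Rows of unassigned reads were kept out of library sizes. Of 43346 identifiers, 42462 were matched to a Gencode M21 symbol (GRCm38).

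Counts were tested in R 4.3.3 with edgeR 4.0.16: TMM scaling, filterByExpr (minimum count 10, minimum total 15, 15467 genes left), robust quasi-likelihood F-test, stage as the only term, Benjamini-Hochberg over all genes, threshold 0.05. The study used DESeq2. DESeq2 1.42.0 and limma 3.58.1 (voom) were alternatives, beside other scalings, filters, thinned counts and litters left out. CPM uses TMM library sizes and log2 CPM a prior count of 2. The scripts were tested on simulated data. The 35 genes, the related lists and the marker lists were chosen with earlier results of these data known. From each related list, up to 3 genes past the threshold with the largest change and a mean log2 CPM of at least 2 are named, beside all 35 genes; some genes of these lists are not reported here by name.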

Additional observations from a re-analysis of the deposited data

Results flagged for a closer look

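In groups of 4 litters, a litter was set aside as extreme when its gap to the nearest other litter was too large a share of the whole range for Dixon's test at 95%. Of 118 groups checked 6 passed, and about 1 in 20, or 5.9, are expected by chance. In the sterol branch, the E12.5 litter NPD9.2 was low for Fdft1, at 39.3 CPM where the other litters had 75.5 to 82.3 CPM, and for the summed squalene and lanosterol genes, at 138 CPM where the others had 208 to 220.3 CPM. The P0 litter NPD30 was high for Mvk, at 29.7 CPM where the others had 19.5 to 20.3 CPM. In the fatty acid branch, the P0 litter NPD28 was high for Acss2, at 16.2 CPM where the others had 10.22 to 11.0 CPM. Among related genes, NPD30 was high for Elovl2 at 2.43 CPM (others 0.589 to 0.865 CPM), and NPD9.2 was high for Nr1h3 at 5.66 CPM (others 0 to 0.604 CPM).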

How the results depend on the processing

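None of the 6 genes that passed changed direction under any alternative, and 18 of the other 29 took another sign in at least 1 fit without passing. With each litter left out in turn, 1 to 3 of the 35 genes were lower at P0, as were 1 to 3 fatty acid genes and 0 to 1 sterol genes, 1 to 3 fatty acid genes were higher (3 without NPD27, where Fads1 passed), and the median log2 fold change ran from -0.10 to 0.077 over the 35 genes and from -0.25 to 0.081 in the fatty acid branch. Acat2 added 1 lower sterol gene with DESeq2, limma-voom, upper quartile factors, no filter and thinned counts. The higher fatty acid genes fell to 1 with limma-voom and with upper quartile factors, which moved the median of the 35 genes to -0.091 and that of all genes from 0.04 to -0.11. Without a filter 1 regulator (Scap) was higher. Without both NDP10.2 and NPD9.2, 1 of the 35 genes was lower (also 1 in the fatty acid branch), 0 sterol genes, 1 fatty acid gene and 1 regulator were higher, and the median of the 35 was -0.14. An alternative chosen after seeing the data kept NPD30 as the only P0 litter, with medians of 0.35 over the 35 and 0.29 in the fatty acid branch. Fewer samples bear on these last fits, and for the other shifts the cause was not tested. No paired analysis was possible because the litters of the stages share no number. Depth limits Idi1, Acacb and Acss2 most, at 1.97 to 16.2 CPM.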
